A study of Mus musculus with 12 samples.

Results

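The common gamma chain, encoded by Il2rg, is the receptor subunit that interleukins 2, 4, 7, 9, 15 and 21 share, and each of these cytokines adds private chains to it. The 10 genes described here were chosen by symbol: the receptor chains Il2ra, Il2rb, Il2rg, Il4ra, Il7r and Il21r, the kinase Jak3, the transcription factors Stat5a and Stat5b, and Pim1, a kinase gene that is induced by STAT5. All 10 were found among the 55011 gene symbols of the count table, and all 10 passed the filter on low counts together with 13295 genes in all.

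Regulatory T cells (Treg), the CD4 T cells that restrain immune responses, were collected from spleen and lung of 21-day-old male C57BL/6 mice in 4 groups of 3 libraries, each made from 1000 cells with Smart-seq2, an amplification of polyadenylated RNA. The spleen WT and lung WT cells had the genotype Foxp3.ires.GFP, in which a GFP reporter is read from the Foxp3 locus. The spleen ∆Foxp3 cells are labelled ∆Foxp3.EGFP.iCre X R26.YFP and the lung ∆Foxp3 cells ∆Foxp3.ires.GFP, while the extraction protocol gives ∆Foxp3.ires.GFP for both tissues. Tissue and allele therefore cannot be told apart in lung minus spleen within ∆Foxp3 or in the difference between the tissues' genotype effects. By the same labels, spleen ∆Foxp3 and spleen WT cells differ in iCre, R26.YFP and the reporter as well as in Foxp3. These differences cannot be told apart in the spleen genotype comparison. All 4 groups passed the same gate, which required DAPI-negative, TCRβ+, CD4+, GFP+ and CD25+ cells, and the lung alone was perfused and digested with enzymes at 37°C and enriched for CD4 cells on magnets. No label ties a library to its own mouse, so a p here measures only spread between libraries, part of which could be technical.

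In T cells, a gamma chain cytokine brings its receptor chains together, JAK1 and JAK3 bound to their tails phosphorylate STAT proteins, and STAT5 dimers then enter the nucleus and bind DNA at TTCNNNGAA sites. Interleukin 2 binds with high affinity to the trimer of Il2ra (CD25), Il2rb (CD122) and Il2rg, and Treg depend on it for survival and for Foxp3 expression. CD25 is high on Treg while the interleukin 7 receptor chain Il7r (CD127) is low, and proteins of the CIS and SOCS family feed back on the receptors and kinases.

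Library totals ran from 3958892 to 9025150 counts, and the 10 genes together took 0.471% to 0.525% of the counts in spleen WT, 0.353% to 0.388% in spleen ∆Foxp3, 0.437% to 0.513% in lung WT and 0.319% to 0.385% in lung ∆Foxp3. Foxp3 itself was detected at 991 to 1096 CPM (counts scaled to library size, with TMM factors) in spleen WT, 114 to 227 in spleen ∆Foxp3, 1328 to 1418 in lung WT and 189 to 469 in lung ∆Foxp3. The 7 T cell markers were present in every group, with a summed level of 4164 to 6441 CPM. The summed markers of NK and innate lymphoid cells were higher in ∆Foxp3, at 69.5 to 183 against 26.6 to 44.7 CPM in spleen and 270 to 430 against 102 to 124 CPM in lung. Il1rl1 alone, which tissue Treg can also express, gave 68.4 to 177 CPM of it in spleen ∆Foxp3 and 263 to 425 CPM in lung ∆Foxp3, while the NK gene Ncr1 was at 0 in every library. Erythroid markers summed to 1970 to 4896 CPM in lung WT and to 1.19 to 403 CPM in lung ∆Foxp3. In bulk libraries such as these, fewer cells of a type and less RNA per cell cannot be told apart. An earlier analysis of these data named spleen WT 1, lung WT 1 and lung ∆Foxp3 3 as standing apart. Genotype and WT tissue calls of the genes named here that were lost without these 3 libraries are given with both values.

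Promoter sequences are shown for the members that were lower in ∆Foxp3 cells of both tissues (Pim1, Stat5b and Il4ra) and for those whose 250 bases before the RefSeq start (build GRCm38.p6) held a searched motif at the first listed start (Il7r and Il21r). The motifs were TTCNNNGAA, the STAT5 consensus, and TGTTTAC, a forkhead consensus, both searched on both strands. Capitals mark a match.
Pim1 (chr17:29490535-29490784, plus strand): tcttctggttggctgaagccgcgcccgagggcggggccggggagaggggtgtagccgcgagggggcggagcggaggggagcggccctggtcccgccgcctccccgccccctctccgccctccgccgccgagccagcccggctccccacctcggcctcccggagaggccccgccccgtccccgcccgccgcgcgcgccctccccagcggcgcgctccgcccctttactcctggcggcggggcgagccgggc
Stat5b (chr11:100850582-100850831, minus strand): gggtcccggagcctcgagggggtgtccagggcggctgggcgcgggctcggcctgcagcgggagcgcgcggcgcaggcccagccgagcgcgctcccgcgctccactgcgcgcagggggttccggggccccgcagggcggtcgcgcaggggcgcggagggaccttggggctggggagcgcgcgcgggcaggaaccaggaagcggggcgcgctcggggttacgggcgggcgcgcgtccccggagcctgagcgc
Il4ra (chr7:125552021-125552270, plus strand): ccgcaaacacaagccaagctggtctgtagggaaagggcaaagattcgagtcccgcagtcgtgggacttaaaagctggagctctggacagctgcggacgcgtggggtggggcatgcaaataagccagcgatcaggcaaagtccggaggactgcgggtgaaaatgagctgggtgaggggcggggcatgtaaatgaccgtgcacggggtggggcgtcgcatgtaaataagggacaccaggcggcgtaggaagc
Il7r (chr15:9529877-9530126, minus strand): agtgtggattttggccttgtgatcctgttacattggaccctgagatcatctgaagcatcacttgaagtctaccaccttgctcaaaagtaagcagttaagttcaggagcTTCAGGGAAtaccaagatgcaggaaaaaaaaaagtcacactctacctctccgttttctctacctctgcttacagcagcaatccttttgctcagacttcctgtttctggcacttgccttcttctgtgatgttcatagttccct
Il21r (chr7:125603179-125603428, plus strand): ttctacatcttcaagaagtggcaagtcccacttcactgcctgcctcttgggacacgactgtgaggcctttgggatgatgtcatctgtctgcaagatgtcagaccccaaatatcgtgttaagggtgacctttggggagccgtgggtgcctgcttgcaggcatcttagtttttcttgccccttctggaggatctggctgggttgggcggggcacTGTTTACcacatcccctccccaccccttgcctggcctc
Of the 12 upstream windows listed for 9 members, 1 held TTCNNNGAA, the TTCAGGGAA that starts 142 bases before the Il7r start, and 7.02% of 32851 windows of the same length in the reference table held that motif. TGTTTAC was found 38 bases before the Il21r start and 70 bases before the start of a second Pim1 transcript that starts inside the gene, and in 3.17% of all windows. The Pim1 and Stat5b windows above were rich in G and C (82.4% and 82.0%), with 36 and 40 CG pairs, while the Il7r window had 44.0% G and C and 1 CG pair. A match or its absence is a description of these letters. Il2rb had no window in the table.

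In spleen, the genotype comparison asked how Treg of the labelled ∆Foxp3 genotype differ from WT Treg. By the labels these genotypes differ in more than Foxp3, as given above. Of the 10 genes, 5 fell and 1 rose in ∆Foxp3 cells by edgeR's quasi-likelihood test, where 26.6% of all tested genes were called at a Benjamini-Hochberg adjusted p under 0.05. Pim1 fell most, followed by Il2ra, Il4ra, Stat5b and Il21r, and Jak3 rose. The median log2 fold change was -0.53 over the 10 genes and -0.02 over all tested genes. The libraries of the 2 genotypes did not overlap for 7 of the 10 genes, against 38.2% of all tested genes.

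In lung, 3 of the 10 genes fell in ∆Foxp3 cells, Pim1, Stat5b and Il4ra, where 20.2% of all tested genes were called. The median log2 fold change of the 10 genes was -0.48, against -0.01 over all tested genes. The libraries of the genotypes did not overlap for 8 of the 10 genes, against 45.3% of all tested genes. The difference between the lung and spleen genotype effects was called for 0 of the 10 genes by edgeR, DESeq2 or limma, with 1 (Stat5b) at an unadjusted p under 0.05, where 0.925% of all tested genes were called. Calls that differ between the tissues are therefore not shown to be tissue-specific.

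**Figure D1:**
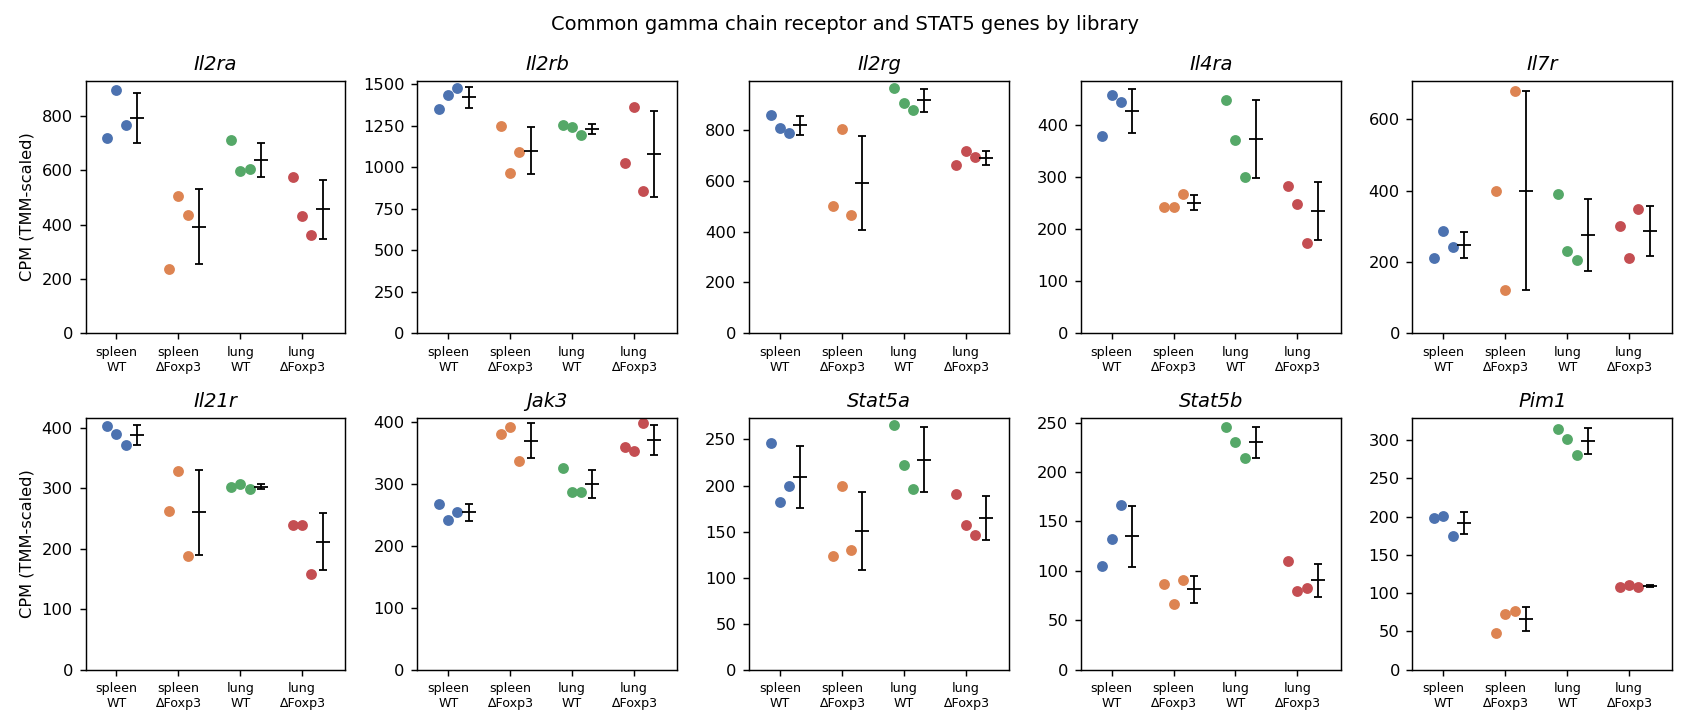
Levels of the 10 genes in each of the 12 libraries, in TMM-scaled CPM from 0 on the vertical axis; each point is 1 library (replicates 1 to 3 from left to right) and the dash and bar beside them are the group mean and SD. Pim1 reached at most 111 CPM in a ∆Foxp3 library and at least 175 CPM in every WT library, and Il7r scattered widely within spleen ∆Foxp3.

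Il2ra encodes CD25, the alpha chain that raises the affinity of the receptor for interleukin 2. Its level was 719, 897 and 766 CPM in the spleen WT libraries and 237, 504 and 435 CPM in spleen ∆Foxp3. It was 711, 599 and 607 CPM in lung WT and 575, 433 and 360 CPM in lung ∆Foxp3. The genotypes did not overlap in either tissue. Il2ra fell by 1.02 ± 0.23 (SE, n = 3 per group) on the log2 scale in spleen (edgeR adjusted p = 0.00531). In lung the log2 difference was -0.49 ± 0.23 (adjusted p = 0.156), and the tissues' differences themselves differed by 0.53 ± 0.33 (adjusted p = 0.718). The lung difference was called in 2 of the 20 alternative settings, without the low-count filter (0.0373) and in a fit of the lung groups alone (0.0359). Its adjusted p was highest without the 3 libraries that stand apart (0.645), and its log2 value ran from -0.64 to -0.23 over the settings. Because CD25 was part of the gate in every group, these levels describe only cells that carried enough CD25 protein to be sorted. Spleen ∆Foxp3 1, the library with the lowest Il2ra, was also the highest of its group in summed erythroid markers (381 CPM) and in macrophage, monocyte and dendritic cell markers (191 CPM). The part of those cells in the difference was not tested, and the difference remained called in all 20 alternative settings, including the one without that library (-0.73, adjusted p = 0.0162).

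Gm37881 (build mm10, chr2:11683126-11683546) is an annotated interval of unknown status on the Il2ra strand that touches no Il2ra exon, and it was chosen here after its values had been seen, so its values are a description with no test. It held 11.8, 16.4 and 14.4 CPM in spleen WT and 4.81, 6.47 and 7.46 CPM in spleen ∆Foxp3. Lung WT libraries held 15.5, 11.9 and 10.9 CPM of it and lung ∆Foxp3 libraries 15.2, 12.5 and 9.83 CPM. The spleen groups lay apart and the lung groups overlapped.

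Il2rb, the beta chain shared by the receptors for interleukins 2 and 15, was the most abundant of the 10 transcripts in CPM. It read 1350, 1439 and 1478 CPM in spleen WT, 1248, 966 and 1090 in spleen ∆Foxp3, 1254, 1244 and 1196 in lung WT, and 1027, 1367 and 856 in lung ∆Foxp3. The spleen groups did not overlap, while lung ∆Foxp3 2 lay above all lung WT libraries. No call was made in spleen (log2 difference -0.37 ± 0.16, edgeR adjusted p = 0.0954) or in lung (-0.19 ± 0.16, adjusted p = 0.438), and none in any of the 20 alternative settings.

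Il2rg, the shared gamma chain itself, read 859, 810 and 789 CPM in spleen WT and 501, 804 and 466 CPM in spleen ∆Foxp3. Lung WT libraries read 967, 906 and 881 CPM, and lung ∆Foxp3 libraries 662, 717 and 693 CPM. In spleen, library 2 of ∆Foxp3 lay among the WT libraries and the other two were far below, whereas the lung groups did not overlap. The log2 differences were -0.47 ± 0.17 in spleen (edgeR adjusted p = 0.0522) and -0.41 ± 0.17 in lung (adjusted p = 0.103). Without spleen ∆Foxp3 2, Il2rg was called lower in spleen (-0.76, adjusted p = 0.000598) and in lung (-0.41, adjusted p = 0.0146). It was also called lower in spleen with library totals (adjusted p = 0.0186), without the low-count filter (0.0261), by limma (0.0035) and with the replicate block (0.0464). In lung it was called by limma (0.0107) and in a fit of the lung groups alone (0.00662). Calls thus came in 5 of the 20 alternative settings in spleen and in 3 in lung. The adjusted p rose to 0.239 in spleen without spleen ∆Foxp3 1, and to 0.348 in lung without the 3 libraries that stand apart.

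Il4ra, the chain that binds interleukin 4 and also serves the interleukin 13 receptor, was lower in ∆Foxp3 cells of both tissues. Its values were 379, 459 and 445 CPM in spleen WT against 243, 242 and 267 CPM in spleen ∆Foxp3, a fall of 0.77 ± 0.18 on the log2 scale (edgeR adjusted p = 0.00647). In lung they were 449, 373 and 300 CPM in WT against 283, 248 and 173 CPM in ∆Foxp3, a fall of 0.67 ± 0.18 (adjusted p = 0.0190). Neither tissue's groups overlapped, and the spleen ∆Foxp3 libraries lay closest together. The lung call was lost without lung WT 1 (adjusted p = 0.116), lung WT 2 (0.0651), lung ∆Foxp3 2 (0.0554) or lung ∆Foxp3 3 (0.113), and on leaving out the 3 that stand apart (log2 difference -0.31, adjusted p = 0.241).

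Il21r, which neighbours Il4ra on chromosome 7 with 23.954 kb between the genes and encodes the private chain for interleukin 21, read 404, 389 and 371 CPM in spleen WT and 263, 328 and 189 CPM in spleen ∆Foxp3. Lung WT libraries read 303, 308 and 299 CPM, and lung ∆Foxp3 libraries 239, 239 and 157 CPM. The genotypes did not overlap in either tissue, and the lung WT libraries were the tightest group. Il21r fell by 0.58 ± 0.19 in spleen on the log2 scale (edgeR adjusted p = 0.0364), while in lung the difference of -0.52 ± 0.19 was not called (adjusted p = 0.0705). The lung difference was called in 6 of the 20 alternative settings. These were limma (adjusted p = 0.0093), a fit of the lung groups alone (0.0209), no low-count filter (0.0375) and the replicate block (0.0394). The others left out spleen ∆Foxp3 2 (0.0409) or spleen ∆Foxp3 3 (0.0313). The spleen call was lost in 12 of the 20 alternative settings: on leaving out any 1 spleen library except ∆Foxp3 2 (adjusted p = 0.0609 to 0.126), any 1 lung library except ∆Foxp3 3 (0.0541 to 0.0665), or the 3 libraries that stand apart (0.0744), and in a fit of the spleen groups alone (0.0822).

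Il7r, the interleukin 7 receptor chain whose upstream window holds the TTCAGGGAA shown above, had the largest standard error of the 10 genes. It read 212, 286 and 243 CPM in spleen WT but 400, 121 and 680 CPM in spleen ∆Foxp3, where library 2 lay below all WT libraries and the other two above them. Lung WT libraries read 391, 231 and 205 CPM and lung ∆Foxp3 libraries 301, 211 and 349 CPM, and these groups overlapped. The log2 differences, 0.70 ± 0.46 in spleen (edgeR adjusted p = 0.292) and 0.06 ± 0.46 in lung (adjusted p = 0.950), were within that spread. Leaving out spleen ∆Foxp3 2 turned the spleen difference into a call (1.13, adjusted p = 0.0177), the only 1 in the 20 alternative settings. Without spleen ∆Foxp3 3 the adjusted p was 0.917, and over the settings the spleen difference ran from 0.08 to 1.13. Whether Il7r counts as higher in spleen ∆Foxp3 cells thus depends on which library is left out.

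Spleen ∆Foxp3 2 thus differed from its fellow replicates across the receptor chains. Of the 3 libraries it had the highest Il2ra, Il2rg, Il21r and Stat5a and the lowest Il7r, Il2rb and Stat5b. Among lung ∆Foxp3 libraries, library 3 had the lowest Il2ra, Il2rb, Il4ra, Il21r and Stat5a and the highest Il7r and Jak3. Lung ∆Foxp3 3 also had the highest share of mitochondrial counts of all 12 libraries (2.44%, against 1.40% to 1.63% in the others), whose part in these values was not tested.

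Jak3, the kinase that binds the common gamma chain, was the only member that rose. It read 268, 241 and 255 CPM in spleen WT and 381, 392 and 338 CPM in spleen ∆Foxp3, a rise of 0.54 ± 0.12 on the log2 scale (edgeR adjusted p = 0.00501). Lung libraries read 326, 288 and 287 CPM in WT and 360, 354 and 400 CPM in ∆Foxp3, with a difference of 0.31 ± 0.12 that was not called (adjusted p = 0.0959). The ∆Foxp3 libraries lay above all WT libraries in both tissues, although in lung the gap was narrow. The spleen rise remained called in all 20 alternative settings, and the tissues' differences differed by -0.23 ± 0.17 (adjusted p = 0.791). The lung difference was called by limma (adjusted p = 0.0139) and without spleen WT 1 (0.0495). Insl3, which shares exon sequence with the end of Jak3, held at most 17 counts in a library.

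Stat5a and Stat5b encode closely related STAT5 proteins and lie head to head on chromosome 11 with 8.626 kb between them. Stat5a read 246, 182 and 200 CPM in spleen WT, 123, 199 and 130 in spleen ∆Foxp3, 266, 223 and 196 in lung WT, and 191, 157 and 146 in lung ∆Foxp3. Spleen ∆Foxp3 2 lay inside the WT range and all other ∆Foxp3 libraries lay below their tissue's WT libraries. The log2 differences of -0.48 ± 0.20 in spleen (edgeR adjusted p = 0.0899) and -0.47 ± 0.20 in lung (adjusted p = 0.109) were not called. Without spleen ∆Foxp3 2 the spleen difference was -0.73 (adjusted p = 0.0113), while without spleen ∆Foxp3 1 the adjusted p was 0.333. By limma Stat5a was called lower in spleen (adjusted p = 0.0323) and in lung (0.0181), and a fit of the lung groups alone also called it (0.0297). Calls thus came in 2 of the 20 alternative settings in each tissue. In lung the edgeR adjusted p rose to 0.545 without the 3 libraries that stand apart.

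Stat5b was lower in ∆Foxp3 cells of both tissues. It read 105, 133 and 167 CPM in spleen WT and 86.8, 66.2 and 91.1 CPM in spleen ∆Foxp3, a fall of 0.73 ± 0.19 on the log2 scale (edgeR adjusted p = 0.0114). In lung it read 246, 231 and 214 CPM in WT and 110, 79.7 and 82.2 CPM in ∆Foxp3, a fall of 1.35 ± 0.19 (adjusted p = 0.000294). Every lung WT library lay above every spleen WT library, while the ∆Foxp3 libraries of the tissues overlapped. The difference between the tissues' genotype effects, -0.62 ± 0.27, was not called (adjusted p = 0.483). The lung fall remained called in all 20 alternative settings, and the spleen fall in all but the one without spleen WT 3 (-0.54, adjusted p = 0.0605). Of the stretches of 38 nt, the read length, in the annotated transcripts, 10.2% for Stat5a and 13.5% for Stat5b occur in both genes, with the handling of such reads not given in the sources used here.

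**Figure D2:**
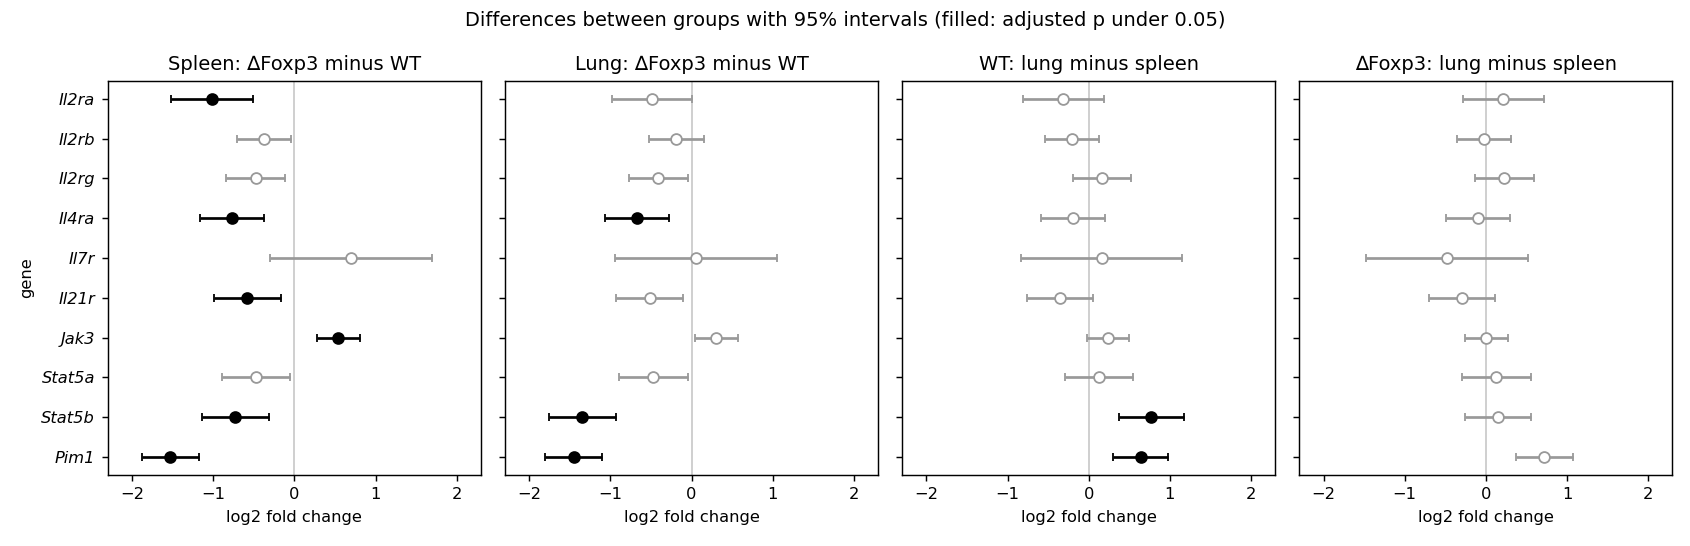
Log2 fold changes of the 10 genes (horizontal axis, log2 of TMM-scaled counts) with 95% intervals in 4 comparisons; filled points are called at an adjusted p under 0.05 and open grey points are not. Pim1 and Stat5b lie left of 0 in both genotype panels and right of 0 in the WT tissue panel, and Jak3 is the only filled point to the right in a genotype panel.

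Pim1, a serine and threonine kinase that promotes lymphocyte survival and is induced through STAT5, changed most among the 10 genes. It read 198, 201 and 175 CPM in spleen WT and 48.3, 73.4 and 76.6 CPM in spleen ∆Foxp3, a fall of 1.53 ± 0.17 on the log2 scale or 2.89-fold (edgeR adjusted p = 1.6e-05). In lung it read 314, 301 and 280 CPM in WT and 108, 111 and 108 CPM in ∆Foxp3, a fall of 1.45 ± 0.16 or 2.73-fold (adjusted p = 4.7e-05). The 4 groups did not overlap anywhere: each lung group lay above the spleen group of its genotype, and both ∆Foxp3 groups lay below both WT groups. The genotype falls hardly differed between the tissues (0.08 ± 0.23, 95% interval -0.41 to 0.57, adjusted p = 0.974). Both remained called in all 20 alternative settings. Gm26885, an antisense gene over the start of Pim1, held 1 to 19 counts in a library.

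Within WT, lung and spleen Treg were compared for the effect of tissue. Of the 10 genes, Stat5b and Pim1 rose in lung, where 4.13% of all tested genes were called, and no member fell. Stat5b was higher by 0.77 ± 0.19 on the log2 scale (edgeR adjusted p = 0.0317) and Pim1 by 0.64 ± 0.16 (adjusted p = 0.0344). The WT libraries of the tissues did not overlap for 7 of the 10 genes (25.6% of all tested genes). Among the others, Il2ra, Il2rb and Il21r were lower in every lung WT library than in every spleen WT library, and Il2rg and Jak3 were higher, with none called and log2 differences from -0.36 for Il21r to 0.24 for Jak3. The 2 calls did not withstand single libraries: both were lost without spleen WT 1 (adjusted p = 0.0813 for Stat5b and 0.0505 for Pim1), spleen WT 2 (0.0982 and 0.0812), lung WT 1 (0.0751 and 0.0852), lung WT 2 (0.0834 and 0.101) or lung WT 3 (0.0624 and 0.0728), and that of Pim1 without spleen WT 3 (0.0946). Both were also lost without the 3 libraries that stand apart (0.192 and 0.139) and with library totals in place of TMM factors (0.0721 and 0.0527), with log2 differences of 0.57 to 0.84 throughout. With the replicate block the Pim1 call was lost (0.0549) and the Stat5b call was kept. Lung cells alone were digested at 37°C and enriched on magnets, and tissue and handling cannot be told apart.

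Within ∆Foxp3, none of the 10 genes was called between lung and spleen by edgeR, where 0.722% of all tested genes were called. Pim1 was the 1 gene at an unadjusted p under 0.05, and it was called by DESeq2 (adjusted p = 0.00676) and by limma (0.00493). Its log2 difference by edgeR was 0.72 ± 0.16 (adjusted p = 0.0646), and it was the 1 member whose ∆Foxp3 libraries did not overlap between tissues (15.5% of all tested genes). The other 9 log2 differences ran from -0.48 ± 0.46 for Il7r to 0.23 ± 0.17 for Il2rg.

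**Figure D3:**
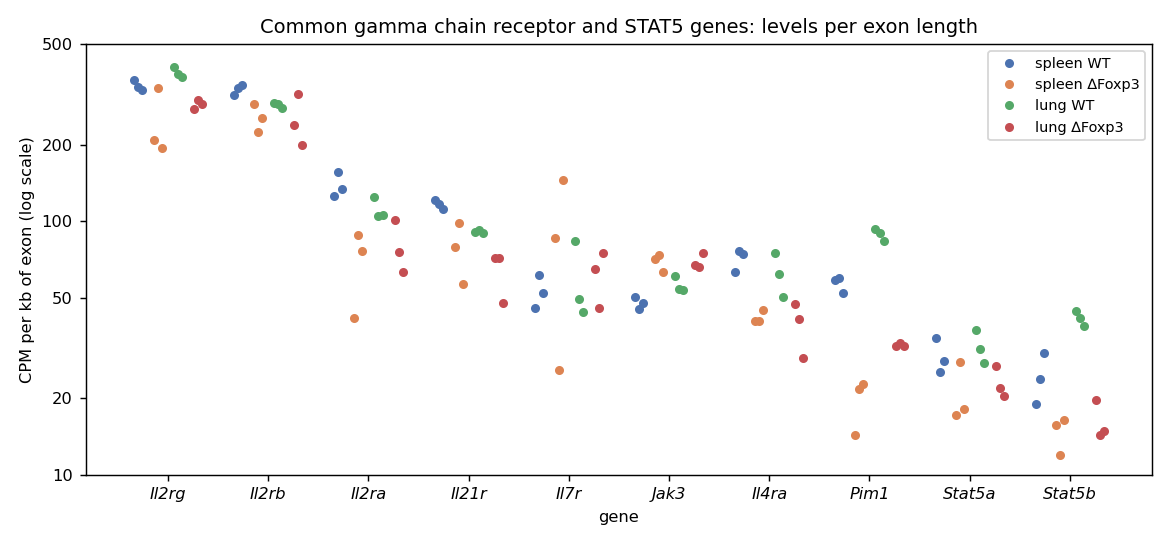
Levels of the 10 genes per kb of annotated exon (TMM-scaled CPM per kb, log scale) in each library, with genes ordered by their mean over the 12 libraries and 1 color per group. Il2rg and Il2rb lie highest in every group and Stat5a and Stat5b near the bottom, with Pim1 among them in spleen ∆Foxp3.

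Levels of different genes were compared per kb of exon (all annotated exons of a gene joined). In spleen WT the order by CPM per kb was Il2rg (343 ± 15.2, SD, n = 3), Il2rb (332 ± 15.3), Il2ra (139 ± 16.2), Il21r (117 ± 4.88), Il4ra (71.3 ± 7.15), Pim1 (56.9 ± 4.29), Il7r (53.0 ± 8.02), Jak3 (47.6 ± 2.52), Stat5a (29.3 ± 4.68) and Stat5b (24.3 ± 5.57). The libraries of neighbours in this order overlapped for Il2rg with Il2rb, Pim1 with Il7r, Il7r with Jak3, and Stat5a with Stat5b. In lung WT, Pim1 (88.7 ± 5.15 CPM per kb) overlapped with Il21r (91.1 ± 1.37), and Stat5b (41.5 ± 2.87) lay above Stat5a (32.0 ± 4.93) without overlap. In spleen ∆Foxp3, Il2ra (68.7 ± 24.3 CPM per kb) ranked sixth, behind Il7r (85.8 ± 59.9), Il21r (78.2 ± 21.0) and Jak3 (69.2 ± 5.40). Each of these overlapped with the next gene below it, while Il7r lay below Il2rg without overlap. In lung ∆Foxp3, Il2ra kept the third rank (79.8 ± 19.1 CPM per kb), overlapping with Jak3 (69.4 ± 4.59). Pim1 dropped to 19.7 ± 4.61 CPM per kb in spleen ∆Foxp3, overlapping with Stat5a and Stat5b, and to 32.4 ± 0.461 in lung ∆Foxp3. With the longest transcript as the length, 8 of the 10 genes kept their rank over the 12 libraries, Pim1 and Il4ra changed places, and Stat5a (47.6 CPM per kb) moved away from Stat5b (25.7), which by joined exons had been near each other (26.4 and 24.2). For Il2rg, 28.3% of 38 nt stretches occur also in Gm20489, a read-through gene that held at most 3 counts, so its level depends on how shared reads were counted.

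The other genes of the pathway were followed as 7 lists of 53 genes, of which 49 were tested. In spleen 9 of the 49 rose and 14 fell in ∆Foxp3 cells, and in lung 11 rose and 11 fell. Of all tested genes, 26.6% were called in spleen and 20.2% in lung, and each list's counts below are to be read against these shares. Lists were chosen with earlier results of these data known, so their counts are descriptions.

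Of the 6 ligands, Il4 and Il21 passed the filter on low counts, and both rose in both tissues. Il4, the type 2 cytokine that binds Il4ra, held no count in any WT library of either tissue, which allows up to 0.142 CPM over the spleen WT group and 0.211 CPM over the lung WT group. It read 19.0, 110 and 34.3 CPM in spleen ∆Foxp3 and 154, 95.2 and 126 CPM in lung ∆Foxp3. By those limits the group means were at least 383-fold higher than WT in spleen and at least 592-fold in lung. The edgeR tests, of the fitted differences and not of these folds, gave adjusted p = 0.000515 in spleen and 0.000611 in lung. Il21, the ligand of Il21r, read 13.6, 48.7 and 1.58 CPM in spleen ∆Foxp3 and 3.46, 3.37 and 2.90 CPM in lung ∆Foxp3, against 1 count over the spleen WT group and 0 over lung WT (adjusted p = 0.000999 and 0.0183). The spleen values of both ligands differed several-fold between libraries. Il2, Il7 and Il15 stayed below 2 CPM in every library and Il9 was at 0 in all 12. The lung call of Il21 was lost without any 1 lung WT library (adjusted p = 0.0505 to 0.0524) and without the 3 libraries that stand apart (adjusted p = 0.144). Both tested ligands passed the filter only through the groups where they were high, so their calls are descriptions.

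Among 4 further receptor chains, 1 rose in spleen and 2 rose in lung. Crlf2, the thymic stromal lymphopoietin receptor, rose by 1.11 ± 0.26 on the log2 scale in spleen (edgeR adjusted p = 0.00578), and its lung rise was 0.88 ± 0.26 (adjusted p = 0.0291). Il15ra, the private chain for interleukin 15, rose by 1.29 ± 0.37 in lung (adjusted p = 0.0248). The lung call of Crlf2 was lost without any 1 lung library (adjusted p = 0.0549 to 0.0767) and without the 3 libraries that stand apart (0.94, adjusted p = 0.101). That of Il15ra was lost without lung WT 2 (0.0511), lung WT 3 (0.0884), lung ∆Foxp3 1 (0.0565) or lung ∆Foxp3 2 (0.0657). The list's median log2 difference was 0.57 in spleen and 0.78 in lung.

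Of the 8 other JAK and STAT genes, 1 rose and 1 fell in spleen, and 1 rose and 2 fell in lung. Jak2 rose by 0.69 ± 0.21 in spleen and 0.82 ± 0.21 in lung on the log2 scale (edgeR adjusted p = 0.0263 and 0.0142). Stat2, which acts in type I interferon signalling, fell by 0.70 ± 0.16 in both tissues (adjusted p = 0.00486 and 0.00711). Jak1, which acts beside Jak3 on gamma chain receptors, fell by 0.64 ± 0.15 in lung (adjusted p = 0.00897). Without the 3 libraries that stand apart, the calls of Jak2 in spleen (log2 difference 0.61, adjusted p = 0.0649), Stat2 in lung (-0.52, adjusted p = 0.119) and Jak1 in lung (-0.55, adjusted p = 0.0609) were lost. Single libraries also ended calls: spleen WT 1 (adjusted p = 0.0614) or spleen ∆Foxp3 3 (0.0642) for Jak2 in spleen, lung WT 3 (0.0514) for Jak2 in lung, lung WT 1 (0.0509) or lung ∆Foxp3 3 (0.0536) for Stat2 in lung, and lung WT 1 (0.0562) or lung ∆Foxp3 2 (0.0542) for Jak1 in lung. The spleen rise of Jak2 was not called by limma (0.0727). The medians were -0.06 and 0.06.

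**Figure D4:**
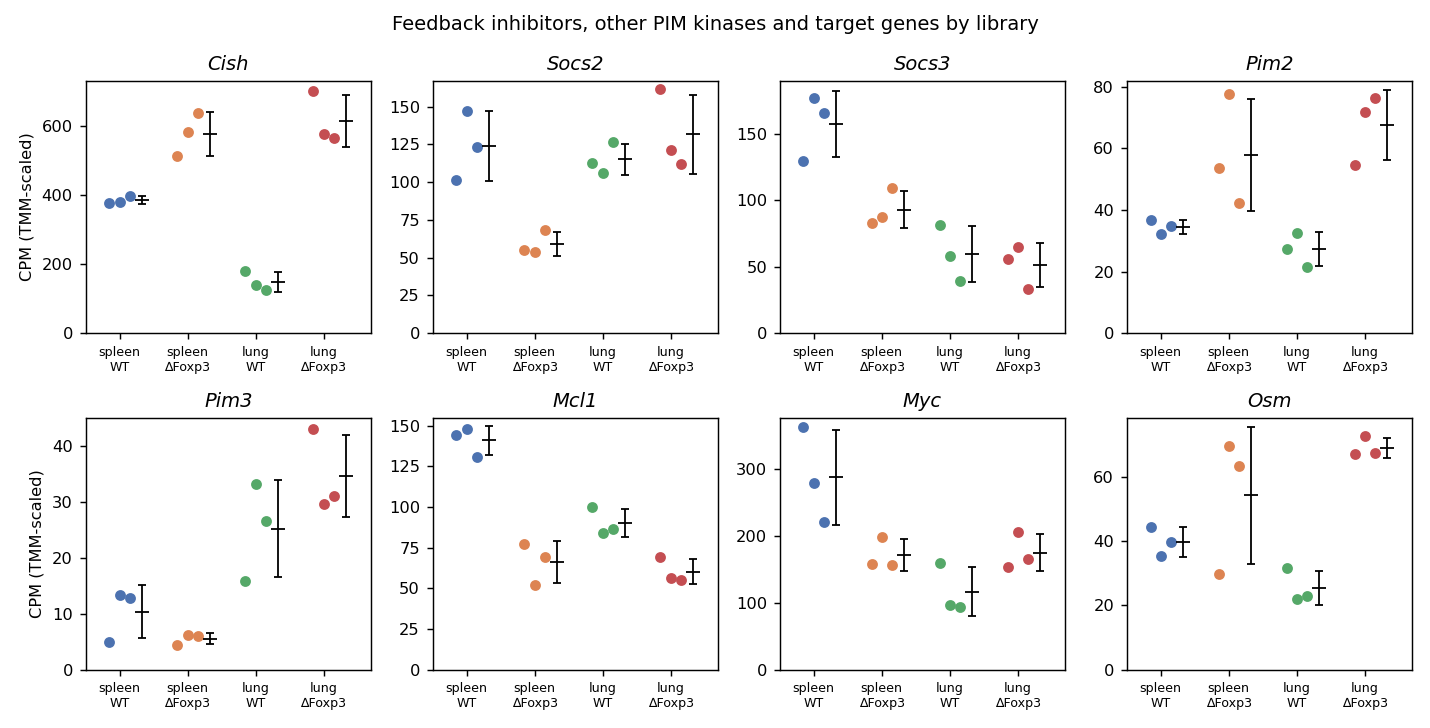
Levels of the feedback genes Cish, Socs2 and Socs3, the kinases Pim2 and Pim3 and the target genes Mcl1, Myc and Osm in each of the 12 libraries (TMM-scaled CPM from 0; points are libraries, dash and bar are group mean and SD). Cish was lowest in lung WT and at 513 CPM or more in every ∆Foxp3 library, while Socs2 was low in spleen ∆Foxp3 alone.

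The other PIM kinases moved against Pim1 or showed no call between genotypes. Pim2 read 32.2 to 36.8 CPM in spleen WT and 53.6, 77.7 and 42.2 CPM in spleen ∆Foxp3, a rise of 0.73 ± 0.24 on the log2 scale (edgeR adjusted p = 0.0317). In lung it read 27.4, 32.7 and 21.6 CPM in WT and 54.7, 71.8 and 76.4 CPM in ∆Foxp3, a rise of 1.32 ± 0.24 (adjusted p = 0.0017). The spleen rise was not called without spleen WT 2 (adjusted p = 0.0944), spleen WT 3 (0.0713) or spleen ∆Foxp3 2 (0.173), without the 3 libraries that stand apart (0.0512) or in a fit of the spleen groups alone (0.0751). Pim3 was not called between genotypes and was higher in lung than in spleen within ∆Foxp3 by 2.63 ± 0.40 (adjusted p = 0.00572), at 43.1, 29.7 and 31.0 CPM against 4.37, 6.23 and 6.03 CPM. Within WT the lung libraries also lay above the spleen libraries, by 1.29 ± 0.37, without a call (adjusted p = 0.0673). That WT difference was called in 4 of the 20 alternative settings, among them DESeq2 (0.0171) and limma (0.0434). The tissues' genotype differences did not differ by a call (adjusted p = 0.409).

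Of the 10 feedback and other inhibitors, 1 rose and 2 fell in spleen (26.6% of all tested genes called), and 1 rose and 1 fell in lung (20.2%), shares near those of all tested genes. Cish, which is induced by STAT5 and acts back on the receptor, was the gene that rose in both. It read 376, 381 and 399 CPM in spleen WT, 513, 583 and 639 in spleen ∆Foxp3, 180, 140 and 125 in lung WT, and 702, 576 and 566 in lung ∆Foxp3. The ∆Foxp3 groups of the tissues overlapped, while lung WT lay far below spleen WT. The rise was 0.59 ± 0.15 on the log2 scale in spleen (edgeR adjusted p = 0.0105) and 2.05 ± 0.16 in lung (adjusted p = 2.3e-06), and within WT Cish was lower in lung by a log2 difference of -1.38 ± 0.16 (adjusted p = 0.000212). Thus Cish rose in the same comparisons in which Pim1 fell.

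Socs2 and Socs3, suppressors of cytokine signalling, fell in spleen ∆Foxp3 cells, with log2 differences of -1.07 ± 0.19 (edgeR adjusted p = 0.000709) and -0.76 ± 0.26 (adjusted p = 0.0443). Socs2 read 101, 147 and 123 CPM in spleen WT against 55.1, 53.5 and 68.2 CPM in spleen ∆Foxp3, and 113, 106 and 126 CPM in lung WT against 162, 121 and 112 CPM in lung ∆Foxp3. The low group was spleen ∆Foxp3, and lung ∆Foxp3 lay above it by 1.16 ± 0.19 (adjusted p = 0.008). The Socs3 call was lost in 9 of the 20 settings, 7 of which left out 1 library: spleen WT 2, spleen WT 3, spleen ∆Foxp3 1, spleen ∆Foxp3 2, lung WT 2, lung ∆Foxp3 1 or lung ∆Foxp3 2 (adjusted p = 0.0517 to 0.147). It was also lost with RLE factors (0.0537) and with the replicate block (0.0598). Within WT, Socs3 and Socs1 were lower in lung, with log2 differences of -1.41 ± 0.27 (adjusted p = 0.00787) and -1.34 ± 0.28 (adjusted p = 0.0134). The Socs1 call was lost without lung WT 1 (0.0502) or lung WT 3 (0.0576). Pias1, an inhibitor of STAT proteins, fell by 0.47 ± 0.15 in lung ∆Foxp3 cells (adjusted p = 0.0404). That call held in 10 of the 20 settings and was lost without any 1 lung library (adjusted p = 0.058 to 0.227), without spleen WT 2 (0.0521) or spleen ∆Foxp3 1 (0.0755), without the low-count filter (0.142), and without the 3 libraries that stand apart (log2 difference -0.22, adjusted p = 0.438).

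Of 12 genes known as interleukin 2 or STAT5 targets in T cells, 1 rose and 5 fell in spleen, and 1 rose and 2 fell in lung, with median log2 differences of -0.27 and 0.17. Mcl1, a survival factor, fell by 1.09 ± 0.17 in spleen (edgeR adjusted p = 0.000312) and fell by 0.58 ± 0.17 in lung (adjusted p = 0.0275). The lung call was lost without any 1 lung library other than ∆Foxp3 1 (adjusted p = 0.0679 to 0.139), without the low-count filter (0.0573), and without the 3 libraries that stand apart (-0.41, adjusted p = 0.254). Lta, lymphotoxin alpha, fell by 2.21 ± 0.41 in spleen (adjusted p = 0.00124), and Prdm1, which encodes Blimp-1, rose there by 1.10 ± 0.27 (adjusted p = 0.0086). Osm, the cytokine oncostatin M, rose by 1.44 ± 0.27 in lung (adjusted p = 0.00206), from 31.4, 22.0 and 22.9 CPM to 66.9, 72.6 and 67.5 CPM. Foxp3, the targeted gene and a STAT5 target, is the remaining gene of the list that fell in both tissues. Within WT, Myc and Mcl1 were lower in lung than in spleen by log2 differences of -1.30 ± 0.23 (adjusted p = 0.00421) and -0.65 ± 0.17 (adjusted p = 0.0434). The Mcl1 tissue call held in 8 of the 20 settings and was lost without any 1 WT library (adjusted p = 0.06 to 0.191), without any 1 ∆Foxp3 library except spleen ∆Foxp3 2 and 3 (0.0555 to 0.0731), with RLE factors (0.0519), and without the 3 libraries that stand apart (-0.68, adjusted p = 0.134).

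Cytokine receptor chains that do not pair with the common gamma chain moved in both directions: of 11 tested, 2 rose and 6 fell in spleen, and 3 rose and 6 fell in lung, with median log2 differences of -1.07 and -0.79. Il6ra, the interleukin 6 receptor, fell by 3.34 ± 0.33 in spleen and fell by 3.50 ± 0.33 in lung on the log2 scale (edgeR adjusted p = 1.2e-05 and 1.9e-05), more than any of the 10 members. Its partner Il6st fell by 2.61 ± 0.46 in spleen and fell by 2.36 ± 0.46 in lung (adjusted p = 0.00135 and 0.00369), and Ifnar1, a type I interferon receptor chain, fell by 1.07 ± 0.13 in each tissue (adjusted p = 4.9e-05 and 9.4e-05). Il10rb fell by 1.35 ± 0.20 in spleen (adjusted p = 0.000231) and fell by 0.92 ± 0.20 in lung (adjusted p = 0.00522). Il12rb2, a chain of the interleukin 12 receptor, rose in lung (adjusted p = 0.000812), from 0, 0.259 and 0 CPM to 5.31, 41.8 and 20.1 CPM. It passed the filter on low counts only through the ∆Foxp3 groups, where it was high, so its call is a description.

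The genes whose pattern over the 12 libraries was most like that of each called member were found among 8519 genes that averaged at least 10 CPM. Likeness was the root mean square difference of centred log2 CPM, where a smaller value means a closer pattern. For Pim1 they were Sytl2 (0.19), Itpkb (0.23) and Saraf (0.25), against a spread of Pim1 itself of 0.88 (SD, log2). For Stat5b they began with Ssh2 (0.17), for Il2ra with Wdr82 (0.16) and for Il4ra with Akap9 (0.16), against spreads of 0.65, 0.53 and 0.44. Hdac7 (0.14) was nearest to Il21r and Psmd8 (0.10) to Jak3, whose own spreads were 0.41 and 0.25. No other member of the family was among the candidates by construction.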

How the data were processed

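Per the labels' protocols, sorted cells were lysed, cDNA was primed with oligo(dT), and Tn5 fragments were amplified over 18 cycles without molecular identifiers. Paired reads had 38 nt. STAR 2.7.3a, featureCounts, Subread 2.0.0 and build mm10 are named in the submitters' processing notes. Their settings, strand handling and annotation: not given in the sources used here. A table that the authors deposited holds raw counts by gene symbol, used unchanged.

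Counts of all 12 libraries were fitted with edgeR 4.0.16 (R 4.3.3): TMM factors, default low-count filter by group, robust quasi-likelihood F test, group as the only term, two-sided, Benjamini-Hochberg adjustment over 13295 genes, called under 0.05. A floor of 3 counts equals 0.332 to 0.758 CPM per library, a limit that covers counting error only. The scripts were tested on simulated data. Exon lengths and coordinates came from GENCODE vM21. The members and lists were chosen with earlier results of these data known. By rule, up to 4 called genes per list and comparison were named, or the 2 most abundant, and the 3 nearest patterns per called member. Alternatives were RLE factors, library totals, no filter, DESeq2 1.42.0, limma 3.58.1 (voom with quality weights), the groups compared alone, the replicate number as a block, each library left out, the 3 libraries that stand apart left out, and the longest transcript as length.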

Additional observations from a re-analysis of the deposited data

Results flagged for a closer look

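For Cish and Socs2, both inhibitors that feed back on cytokine receptors, the genotype difference itself differed between the tissues. The Cish difference was larger in lung by 1.47 ± 0.22 on the log2 scale (edgeR interaction, adjusted p = 0.00537), and it was called in all 19 alternative settings that can fit the term. The Socs2 difference was higher in lung by 1.26 ± 0.26 (adjusted p = 0.0338), negative in spleen (-1.07) and not called in lung. The Socs2 interaction was called in 9 of the 19 settings, with adjusted p from 0.00098 to 0.106. It was lost with the replicate block (0.0699), without any 1 spleen library other than WT 1 and ∆Foxp3 3, and without any 1 lung library other than ∆Foxp3 3 (0.0546 to 0.106). Tissue, tissue handling and the labelled ∆Foxp3 allele cannot be told apart in either result. Groups of 3 libraries were not searched for outlying values.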

How the results depend on the processing

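Of 990 recomputed differences of the 10 members over 20 settings, 929 stayed on the same side of the threshold. Of the rest, 34 lost a call, 27 gained one and 0 reversed a called direction. The 929 include differences without a call that changed sign, which happened in at least 1 setting for 14 comparisons. Causes were not tested. Member calls in spleen ∆Foxp3 minus WT numbered 4 to 9 with 1 library left out (6 in full). In lung they numbered 2 to 5 (3 in full), 5 without the low-count filter, 7 with limma and 7 with the lung groups alone. For WT lung minus spleen they numbered 0 to 2 (2 in full), and 0 with library totals or without the 3 libraries that stand apart. Within ∆Foxp3 they numbered 0 to 1 (0 in full), and 1 without the filter, with DESeq2 and with limma, each time Pim1. The interaction gave 0 throughout.

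Calls over all genes, in the same order, ran from 2710 to 3575, 1457 to 3364, 281 to 693, 42 to 152 and, for the interaction, 36 to 178 with 1 library left out. In full they were 3540, 2686, 549, 96 and 123. The spleen groups alone gave 2287. In lung, limma gave 4598, and leaving out the 3 libraries gave 1321. For WT lung minus spleen, no filter gave 957, DESeq2 1046 and limma 1046. Within ∆Foxp3 these gave 292, 235 and 228, and for the interaction 363, 304 and 190. Same-numbered libraries deviated from their group means with correlations of -0.04 to 0.10. No label says whether they share a mouse or batch, and correlations over so few noisy libraries cannot settle it. With the replicate block, members called were 7, 4, 1, 0 and 0, and the interaction over all genes gave 74; with it Il2rg was called in spleen (adjusted p = 0.0464), while Pim1 between WT tissues (0.0549) and Socs3 in spleen (0.0598) were not. Counts of the members ran from 221 to 12117 per library.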
